A study of Mus musculus with 8 samples.

Results

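Interferon regulatory factors (IRFs) are transcription factors that share a DNA-binding domain recognising GAAA-type interferon response elements. The 8 genes described here, Irf1, Irf2, Irf3, Irf4, Irf5, Irf7, Irf8 and Irf9, were taken by symbol from the deposited table of raw gene counts, in which they are 8 of 23366 genes, and all 8 passed the filter on low counts, as did 11629 genes in all. The 8 libraries were made from CD4+ T cells of C57BL/6 mice, in 4 groups of 2. Naive cells came from spleen and lymph nodes and carried no treatment label. Th17 cultures began from such cells, received antibodies to CD3e and CD28, and were polarized for 3 days with TGFb and IL-6. The other two groups were Th17 cultures of the same kind with PAM3CSK4 at 2 ug/ml, a synthetic lipopeptide sensed by TLR2, or with biglycan, a matrix proteoglycan that can also be sensed by TLR2. The series text gives the dose of 2 ug/ml next to PAM3CSK4, and the biglycan dose is unclear.

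The family divides by role. IRF3 and IRF7 are phosphorylated downstream of nucleic acid sensors and switch on type I interferon genes, IRF9 is the DNA-binding part of the complex ISGF3 that carries the interferon receptor signal, and IRF1 activates many of the same target genes while IRF2 can compete with it for their promoters. IRF4 and IRF8 are the members restricted to immune cells: they bind DNA weakly alone and act with ETS factors or with AP-1 dimers of BATF and JUN. In T cells, IRF4 is induced through the antigen receptor and is required for Th17 differentiation. IRF5 is best known from myeloid and B cells, where it acts downstream of MyD88, the adaptor of most Toll-like receptors, TLR2 included.

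Gene counts summed to between 7012244 and 12533045 per library, and 12847 to 13774 genes had a count. Ribosomal RNA took 1.43 to 3.04% of reads and mitochondrial RNA 9.87 to 16.1%, the latter lowest in the naive libraries. The T cell identity of the samples was checked by Cd3e, a T cell receptor subunit with 1053 to 1709 counts per library, and Cd4, the coreceptor that names the subset, with 5873 to 8900. Several markers of other cell types were at or near 0: Cd79a, Ms4a1, Lyz2, Csf1r and Cd8a had 0 to 7 counts per library, Siglech 0 to 1, Itgax 0 to 9, Flt3 2 to 16, and Ncr1 0 in all 8. Not all were: over both Th17 libraries, Cd8b1 had 108 counts and Klrd1 955. The CD8 and NK cell list that holds them summed to 139 to 152 CPM in naive and 280 to 341 in culture libraries. Of its 6 tested genes 3 rose and 3 fell in Th17 against naive cells, where 37.8% of all genes were called higher and 34.4% lower. The part of such cells was not tested. Whether replicate libraries stem from different mice or wells is not stated by the labels, and the p-values below therefore reflect the spread from library to library alone, possibly a technical one. In bulk RNA, fewer cells of a type and less RNA per cell cannot be told apart, and this holds for every difference below.

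Promoter windows, from 250 bases before to 50 after an annotated start site, were available from RefSeq (GRCm38.p6) for all 8 members, in 11 windows. They are shown for Irf1, Irf2, Irf4 and Irf8: the first window of Irf1 and of Irf8 and the window of Irf2 are the 3 that held a searched motif, and Irf4 was the most abundant member in the cultures. The Irf1 window lies at chr11:53769764-53770063, the Irf2 window at chr8:46739495-46739794, the Irf4 window at chr13:30748983-30749282 and the Irf8 window at chr8:120736108-120736407, all on the plus strand. Capitals mark motif matches.
Irf1: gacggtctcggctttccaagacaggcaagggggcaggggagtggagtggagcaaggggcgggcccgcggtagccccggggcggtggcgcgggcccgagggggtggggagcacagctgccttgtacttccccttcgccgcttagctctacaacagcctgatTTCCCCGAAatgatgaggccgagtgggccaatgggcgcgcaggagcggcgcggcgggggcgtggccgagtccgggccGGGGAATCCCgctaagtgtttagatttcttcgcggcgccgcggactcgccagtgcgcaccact
Irf2: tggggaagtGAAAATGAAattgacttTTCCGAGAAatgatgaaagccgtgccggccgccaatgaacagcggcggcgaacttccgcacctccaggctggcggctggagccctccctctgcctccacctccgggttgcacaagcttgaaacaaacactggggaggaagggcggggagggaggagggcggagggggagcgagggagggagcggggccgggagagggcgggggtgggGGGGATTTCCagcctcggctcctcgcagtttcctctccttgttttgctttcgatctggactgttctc
Irf4: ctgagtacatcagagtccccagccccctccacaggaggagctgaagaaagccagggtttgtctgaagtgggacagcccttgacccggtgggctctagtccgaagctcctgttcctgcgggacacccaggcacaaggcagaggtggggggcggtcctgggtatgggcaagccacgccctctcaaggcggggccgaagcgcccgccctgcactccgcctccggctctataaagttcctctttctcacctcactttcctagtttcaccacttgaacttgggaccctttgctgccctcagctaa
Irf8: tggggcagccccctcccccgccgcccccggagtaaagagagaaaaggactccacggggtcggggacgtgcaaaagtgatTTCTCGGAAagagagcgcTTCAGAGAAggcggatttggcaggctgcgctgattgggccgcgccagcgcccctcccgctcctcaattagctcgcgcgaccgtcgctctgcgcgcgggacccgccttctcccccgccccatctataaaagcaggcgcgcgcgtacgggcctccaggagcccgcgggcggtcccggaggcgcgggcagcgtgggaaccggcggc

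The capitals in the Irf1 window are a GAS core (TTCNNNGAA, the element of STAT dimers) at -90 to -82 from the start site and an NF-kB consensus match at -13 to -4. The Irf2 window holds an interferon response core (GAAANNGAA) at -241 to -233, a GAS core at -224 to -216 and an NF-kB consensus match at -17 to -8, and the Irf8 window holds GAS cores at -171 to -163 and -153 to -145. Both strands were searched, and no match overlapped one of another motif. Of 32851 RefSeq windows of this length, 8.56% held the interferon response core, 8.3% the GAS core, 4.51% the NF-kB consensus and 7.81% an AP-1 site (TGANTCA), of which the 11 windows held 1, 3, 2 and 0. A match describes letters in the window, and where none was found only those letters were missing from it.

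**Figure D1:**
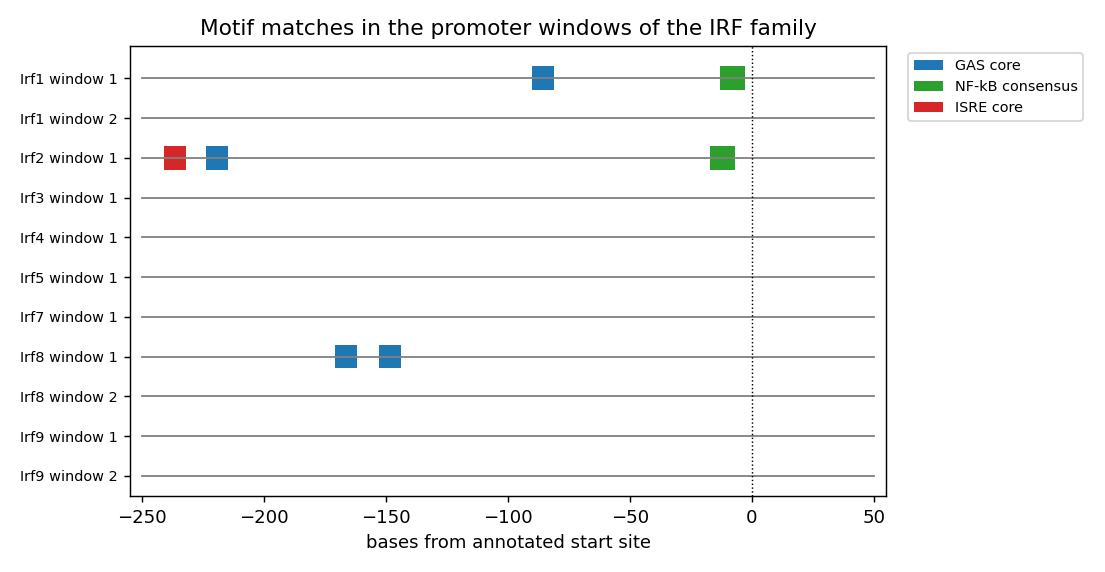
Motif matches in the 11 RefSeq promoter windows of the 8 members, drawn by distance in bases from the annotated start site (dotted line). The 3 windows with matches belong to Irf1, Irf2 and Irf8.

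Th17 cultures were first compared with naive cells, a contrast in which activation, polarization and time in culture cannot be told apart. Of the 8 members, 3 rose (Irf4, Irf5 and Irf8), 4 fell (Irf1, Irf3, Irf7 and Irf9) and Irf2 did not pass the test (edgeR quasi-likelihood, Benjamini-Hochberg adjusted p under 0.05 over 11629 genes). Among all genes tested, 37.8% were called higher and 34.4% lower, so a call is common in this contrast. The sizes differed more: the median absolute log2 change was 2.11 over the members and 0.65 over all genes tested. All values below are CPM (counts divided by the TMM-scaled library total), unless RPKM is named.

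Irf4, the factor required for Th17 differentiation, stood at 109.9 and 107 CPM in the naive libraries and at 656 and 513 in Th17. The groups did not overlap, and Th17 replicate 1 was the higher of its group. The increase was 5.40-fold (log2 2.43 ± 0.10 SE, adjusted p = 1.93e-14). Irf8, its close relative, had 5.97 and 9.48 CPM in naive cells, from 40 and 75 counts, and 25.7 and 30.5 in Th17, a 3.57-fold rise (log2 1.84 ± 0.18 SE, adjusted p = 1.05e-08). Irf5 was near the floor of detection in naive cells, with 14 counts in each library (2.09 and 1.77 CPM), and had 259 and 183 counts in Th17 (21.9 and 17.7 CPM). Its rise of 10.3-fold (log2 3.36 ± 0.23 SE, adjusted p = 3.31e-11) was the largest of the 3 and carried the widest error.

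Irf7, the amplifier of type I interferon production, had the largest change of the family. It had 110.4 and 136.9 CPM in the naive libraries and 5.99 and 6.58 in Th17, from 71 and 68 counts, which is 19.7-fold lower (log2 -4.30 ± 0.14 SE, adjusted p = 2.05e-16). Irf1 stood at 469 and 480.3 CPM in naive cells, the highest CPM of any member there, and at 88.4 and 93.4 in Th17, 5.22-fold lower (log2 -2.38 ± 0.08 SE, adjusted p = 6.55e-16). Replicates of Irf1 differed little in either group and the groups lay far apart.

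Irf9, the DNA-binding subunit of ISGF3, was 2.01-fold lower in Th17, at 125 and 124 CPM against 246 and 252 (log2 -1.004 ± 0.07 SE, adjusted p = 1.50e-10). Irf3, which unlike Irf7 is held as a latent protein in resting cells, fell less, from 77.2 and 95.1 CPM to 55.05 and 60.6, or 1.49-fold (log2 -0.58 ± 0.10 SE, adjusted p = 4.37e-05). The naive replicates of Irf3 were further apart than its Th17 replicates, but the groups did not overlap. Irf2 had 59.7 and 52.7 CPM in naive cells and 57.2 and 58.4 in Th17, where the groups overlapped, with a log2 difference of 0.04 and a 95% interval of -0.15 to 0.24 (adjusted p = 0.696).

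**Figure D2:**
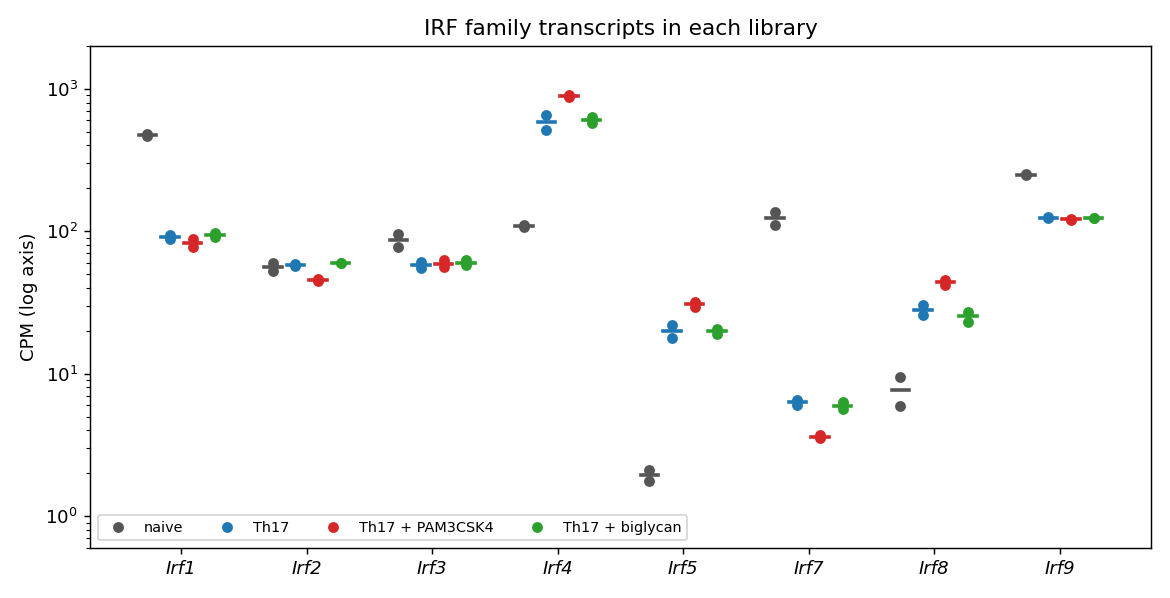
CPM of the 8 members in each of the 8 libraries, on a log axis; points are libraries and bars the group mean of 2. Irf1, Irf3, Irf7 and Irf9 sit highest in naive cells, while Irf4, Irf5 and Irf8 sit higher in all 6 culture libraries and highest with PAM3CSK4.

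Some annotated exons of members overlap those of other genes (GENCODE M21), and whether the authors counted by strand is not given in the sources used here. Such overlaps were with Tnpo3 for Irf5 (411 bases), Rnf31 for Irf9 (123 bases, same strand), Gm17334 for Irf1 (135 bases), Bcl2l12 for Irf3 (88 bases) and Phrf1 for Irf7 (45 bases). Tnpo3, a nuclear import receptor, had 173 CPM in naive cells and 171 in Th17 and was not called in any of the 4 comparisons. Rnf31, a ubiquitin ligase subunit, fell from 83.9 to 47.3 CPM in Th17 and Phrf1 from 162 to 138, so reads shared with these 2 genes cannot be told apart from those of Irf9 and Irf7. Bcl2l12 was not called in any of the 4 comparisons, and Gm17334 was not analysed here.

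Levels were compared between members on the deposited RPKM scale, which divides by gene length. In naive cells Irf1 came first at 99.96 ± 5.86 RPKM (mean ± SD, n = 2 here and below), followed by Irf9 at 45.9 ± 3.31, Irf7 at 27.7 ± 5.53 and Irf3 at 18.6 ± 3.55. Irf2 (10.4 ± 0.611) and Irf4 (10.1 ± 0.158) overlapped, and Irf8 at 1.29 ± 0.434 and Irf5 at 0.317 ± 0.0852 came last. In Th17, Irf4 was first at 66.6 ± 11.8 RPKM, ahead of Irf9 at 28.8 ± 0.592 and Irf1 at 23.7 ± 0.702, and Irf7 was last at 1.78 ± 0.0584. Irf8 and Irf5 overlapped there at 5.68 ± 0.667 and 5.12 ± 0.805 RPKM. The deposited RPKM are not a fixed multiple of the counts, and the ranks were the same with CPM divided by the gene length that the RPKM imply. That length was the median ratio of these same CPM and RPKM values, so equal ranks were largely built in. No separate gene length was used.

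The make-up of this pool of transcripts differed between the groups. The family sum was 214 ± 18.3 RPKM in naive cells, and 160 ± 10.8 RPKM in Th17, 200.4 ± 4.36 RPKM after PAM3CSK4 and 172 ± 4.09 RPKM after biglycan. The RPKM scale differed between naive cells and cultures: Irf1 was at 99.96 RPKM and 125 CPM per kilobase in naive cells, and at 23.7 and 24.0 in Th17. In CPM, not divided by length, the sum was 1080 and 1135 in the naive libraries and 1283 and 1274 with PAM3CSK4. The order of the sums between groups therefore depends on the scale. Irf1 made up 46.7 ± 1.26% of that sum in naive cells and 14.9 ± 1.44% in Th17, while Irf4 went from 4.72 ± 0.329% to 41.5 ± 4.58% and stood at 52.4 ± 1.56% with PAM3CSK4. In RPKM, Irf4 was at 0.104 and 0.0979 of the level of Irf1 in the naive libraries and at 2.40 to 5.11 of it in the 6 culture libraries. The ratio of Irf9 to Irf7 was 1.52 and 1.83 in naive cells and 14.4 to 28.6 in the cultures.

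**Figure D3:**
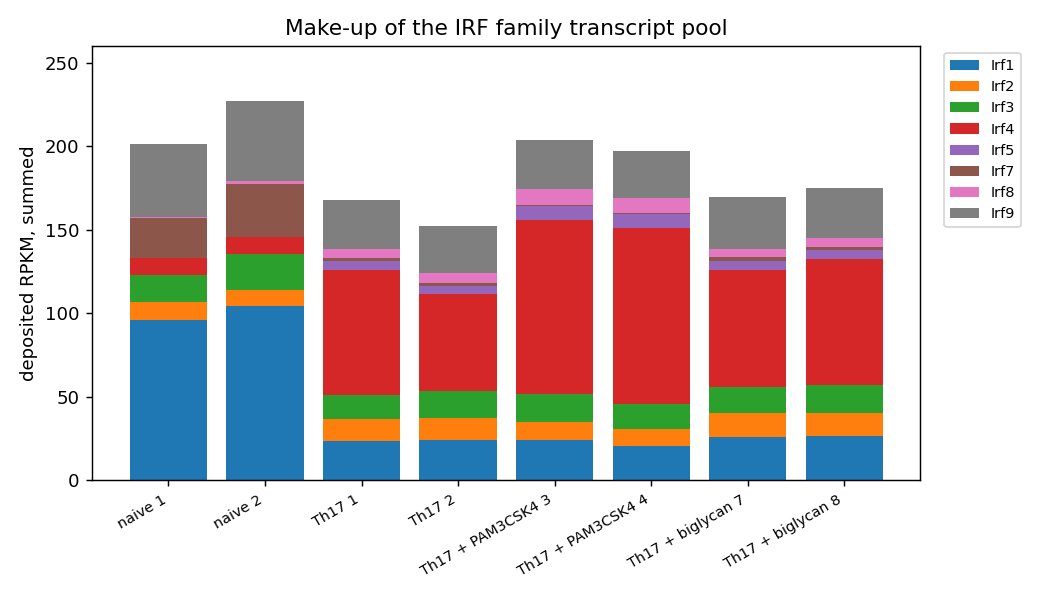
Deposited RPKM of the 8 members stacked for each library. Irf1 is the largest segment in both naive libraries and Irf4 in all 6 culture libraries, with family sums between 152 and 228 RPKM. The RPKM scale differed between naive cells and cultures, so bar heights do not rank the groups.

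PAM3CSK4 added to the polarization was compared with Th17 cultures alone, the contrast that asks what a TLR2 ligand does in these cells. Tlr2 itself was low in Th17, at 2.07 ± 0.0566 CPM from 46 counts over both libraries. Irf4, Irf5 and Irf8 rose by about the same factor, Irf2 and Irf7 fell, and Irf1, Irf3 and Irf9 did not pass the test. Among all genes tested 5.21% were called higher and 4.78% lower, against 3 and 2 of the 8 members, and the median absolute log2 change was 0.48 over the members and 0.14 over all genes.

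Irf4 had 883 and 901 CPM with PAM3CSK4, above both Th17 libraries (656 and 513), a 1.53-fold increase (log2 0.61 ± 0.09 SE, adjusted p = 0.000332). Irf8 had 45.3 and 42.2 CPM against 25.7 and 30.5, a 1.56-fold increase (log2 0.64 ± 0.13 SE, adjusted p = 0.00286). Irf5 had 31.7 and 29.5 CPM against 21.9 and 17.7, a 1.54-fold increase (log2 0.62 ± 0.13 SE, adjusted p = 0.00359). None of these groups overlapped. The calls of Irf4 and Irf8 held when each library was left out in turn, whereas Irf5 missed the threshold without Th17 replicate 2 (adjusted p = 0.0911) and without PAM3CSK4 replicate 3 (adjusted p = 0.0507).

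Because Irf4, Irf5 and Irf8 are also myeloid, dendritic or B cell genes, the levels of those cell types' markers are given beside them. Of the dendritic cell list, 1 of 8 tested genes rose with PAM3CSK4: H2-Ab1, an MHC class II chain, from 4.25 ± 2.46 to 11.2 ± 1.01 CPM. The list's summed level was 66.7 to 72.4 CPM in Th17, 84.1 to 92.0 with PAM3CSK4, 79.2 to 82.5 with biglycan and 70.04 to 75.2 in naive cells. The myeloid list stood at 280.5 to 286, 261, 266 to 272 and 376 to 392 CPM in the same order, with 0 of 7 tested genes called for PAM3CSK4. The B cell list summed to 414 to 434 CPM in Th17, 345 to 357 with PAM3CSK4, 414 to 417 with biglycan and 29.1 to 33.2 in naive cells, nearly all of it Pou2af1, a transcriptional coactivator, which was at 13.5 CPM in naive cells and fell from 413 to 337 CPM with PAM3CSK4. In Th17 against naive cells, 2 of 8 tested dendritic, 2 of 7 myeloid and 1 of 3 B cell genes rose, and 5, 5 and 1 fell, where 37.8% of all genes were called higher and 34.4% lower. Of 14 tested activation and division markers, 6 rose with PAM3CSK4 and 1 fell, with a list median log2 change of -0.03. The activation marker Il2ra was at 754 ± 44.8 CPM against 433 ± 75.8 in Th17. The division markers Mki67 (702 ± 82.3 against 773 ± 70.8) and Top2a (851 ± 113 against 1025 ± 87.2) were not higher. Of 15 markers of naive and quiescent T cells none rose and 5 fell with PAM3CSK4, where 5.21% of all genes were called higher and 4.78% lower. The other abundant genes of the dendritic list did not pass the test: summed over both libraries, Bst2 had 408 counts with PAM3CSK4 and 281 in Th17 (adjusted p = 0.0554), Cd74 215 and 129 (adjusted p = 0.0690) and Tcf4 1100 and 949 (adjusted p = 0.566). Flt3 had 14 and 14 counts, Itgax 10 and 15, and Siglech 0 and 0. Of B cell genes under the filter on low counts, Blnk had 27 counts with PAM3CSK4 and 3 in Th17, Cd79b 19 and 6, and Ms4a1 0 and 2. These genes were named after their values were seen, and the part of other cells in the changes of Irf4, Irf5 and Irf8 was not tested.

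Irf7 had 3.53 and 3.71 CPM with PAM3CSK4 against 5.99 and 6.58 in Th17, 1.73-fold lower (log2 -0.79 ± 0.21 SE, adjusted p = 0.0205), on 45 and 41 counts. Irf2 had 46.5 and 44.6 CPM against 57.2 and 58.4, 1.27-fold lower (log2 -0.34 ± 0.09 SE, adjusted p = 0.0194). Both pairs of groups were separate, but the calls were the least firm of the family. Irf7 missed the threshold without Th17 replicate 2 (adjusted p = 0.167), PAM3CSK4 replicate 3 (0.124) or PAM3CSK4 replicate 4 (0.0959). Irf2 missed it with any 1 of the 4 libraries left out, from 0.0603 without Th17 replicate 1 to 0.173 without PAM3CSK4 replicate 4, with 0.151 without Th17 replicate 2 and 0.0789 without PAM3CSK4 replicate 3, and under DESeq2 (adjusted p = 0.0614).

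Irf1 had 88.4 and 77.7 CPM with PAM3CSK4, Irf3 62.6 and 55.7, and Irf9 122 and 119.6. Their log2 differences from Th17 were -0.13 (95% interval -0.30 to 0.05), 0.04 (-0.18 to 0.25) and -0.04 (-0.20 to 0.11), with adjusted p of 0.407, 0.882 and 0.811 by edgeR.

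Biglycan was compared with Th17 cultures to ask the same of an endogenous TLR2 ligand. No member passed the test, and neither did any gene of the whole table (0% higher and 0% lower by edgeR, and 0 genes by DESeq2; 507 of 11629 genes, or 4.36%, had an unadjusted p under 0.05 by edgeR, none of them a member). Irf4 stood at 571 and 636 CPM, both between the Th17 values, with a log2 difference of 0.05 and a 95% interval of -0.15 to 0.24. Irf5 stood at 19.0 and 20.7 CPM (log2 difference 0.00, interval -0.29 to 0.29) and Irf8 at 23.1 and 27.3 (-0.15, interval -0.45 to 0.14). For all 3 the upper end of the interval lay below the PAM3CSK4 estimate. Irf7 at 6.31 and 5.61 CPM had the widest interval, -0.49 to 0.35, and the intervals of Irf1, Irf2, Irf3 and Irf9 lay between -0.17 and 0.27.

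The direct comparison of PAM3CSK4 with biglycan uses the PAM3CSK4 libraries again, so its values are given beside the former ones and not as a repeat of them. Here 3 members were higher with PAM3CSK4 and 2 lower, where 5.66% and 5.88% of all genes were called. Irf8 was 1.74-fold higher (log2 0.80 ± 0.13 SE, adjusted p = 0.000644), Irf4 1.48-fold (log2 0.56 ± 0.09 SE, adjusted p = 0.000648) and Irf5 1.54-fold (log2 0.62 ± 0.13 SE, adjusted p = 0.00402). Irf2 was 1.31-fold lower (adjusted p = 0.00745) and Irf7 1.65-fold lower (adjusted p = 0.0395). Irf7 lost its call without any 1 of the 4 libraries, with adjusted p of 0.164 without PAM3CSK4 replicate 3, 0.138 without PAM3CSK4 replicate 4, 0.257 without biglycan replicate 7 and 0.0896 without biglycan replicate 8. Irf2 lost it without PAM3CSK4 replicate 4 (0.0947), biglycan replicate 7 (0.0737) or biglycan replicate 8 (0.0699), and Irf5 without biglycan replicate 7 (0.0870).

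**Figure D4:**
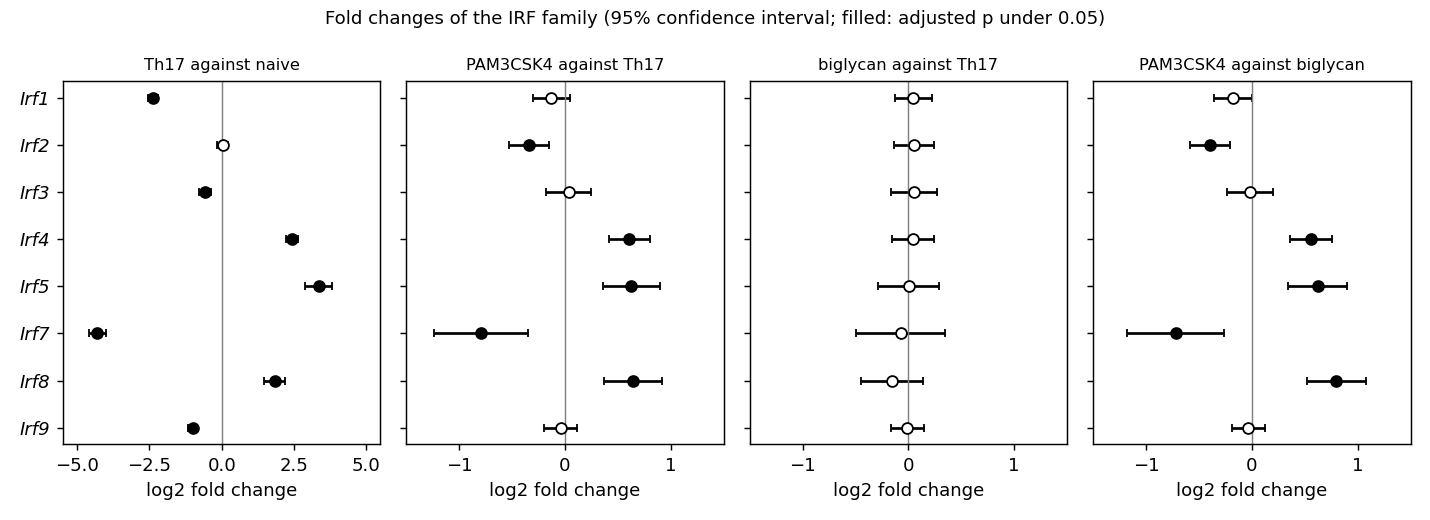
Log2 fold changes of the 8 members in 4 comparisons with 95% confidence intervals derived from the edgeR F statistic. Filled points have an adjusted p under 0.05. The first panel has a wider axis than the others; in the biglycan panel all 8 intervals cover 0.

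Ordered over the 4 groups, Irf4 and Irf5 ran PAM3CSK4, biglycan, Th17, naive, and Irf8 ran PAM3CSK4, Th17, biglycan, naive. In each of these 3 orders the neighbours biglycan and Th17 did not differ beyond their spread (adjusted p = 0.9998), while the first and last steps did. Irf7 ran naive, Th17, biglycan, PAM3CSK4, with biglycan and Th17 again not separated. For Irf1, Irf3 and Irf9 the one step that passed was that from naive cells to the next group, which for Irf1 and Irf3 was biglycan (adjusted p = 1.00e-15 and 0.000138, in a comparison where 34.6% of genes were called lower and 37.5% higher). Irf2 was lowest with PAM3CSK4, below naive cells (log2 difference -0.30, adjusted p = 0.00781, where 34.2% of genes were called lower), and its other neighbours did not differ.

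The genes these factors bind with or act on were read from lists that leave out the members. Each list count stands beside the shares over all genes tested, 37.8% called higher and 34.4% lower in Th17 against naive cells, and 5.21% and 4.78% with PAM3CSK4 against Th17. Among partners of IRF4 on DNA, 2 of 8 tested genes rose and 6 fell in Th17 against naive cells. Ikzf3, the Ikaros-family repressor Aiolos, rose from 167 ± 7.87 to 1190 ± 23.4 CPM and Nfatc2, a calcium-regulated factor, from 108 ± 2.47 to 221 ± 15.8, while the AP-1 subunits Junb (4706 ± 115 to 228 ± 17.2) and Jun (1239 ± 28.1 to 72.1 ± 10.1) fell. With PAM3CSK4, 4 of the 8 rose and none fell: Jun rose 1.71-fold to 124 ± 22.3 CPM (adjusted p = 0.000118) and Junb 1.37-fold to 313 ± 29.1 (adjusted p = 0.00177), with Batf and Jund the other two. The list median was a log2 change of -0.98 in Th17 against naive cells and 0.19 with PAM3CSK4, where the medians of all genes were 0.03 and 0.00.

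Of 20 tested genes reported to depend on IRF4 in Th17 cells, 18 rose and 2 fell in Th17 against naive cells, where 37.8% of all genes were called higher and 34.4% lower. Maf, a factor that drives IL-10 and IL-21, rose 78.7-fold from 12.3 ± 2.42 to 962 ± 116 CPM. Prdm1, which encodes Blimp-1, fell from 10.4 ± 1.52 to 0.441 ± 0.213 CPM and Batf, the AP-1 partner of IRF4, from 46.6 ± 7.40 to 26.6 ± 1.27. The median log2 change was 5.40, or 4.61 with the 4 genes at 0 counts in a group placed at a floor of 3 counts over the group. With PAM3CSK4, 11 of the 20 rose and 1 fell, with a median of 0.38: Il12rb1, a chain of the IL-12 and IL-23 receptors, rose 1.89-fold to 176 ± 9.23 CPM (adjusted p = 5.99e-06), Ahr, the aryl hydrocarbon receptor, 2.05-fold to 266 ± 11.6 (adjusted p = 3.02e-05), and Ccr6, the chemokine receptor of Th17 cells, fell from 16.5 ± 0.691 to 11.4 ± 1.47 (adjusted p = 0.0368).

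A second IRF4 list, of target genes in activated T cells, shares 3 genes (Ctla4, Icos and Prdm1) with the former. Of its 26 tested genes 17 rose and 7 fell in Th17, led by Il2ra, the alpha chain of the IL-2 receptor (4.06 ± 0.381 to 433 ± 75.8 CPM), and Ctla4, an inhibitory receptor (119.5 ± 12.8 to 779 ± 37.7). Slc2a1, the glucose transporter GLUT1, fell from 83.2 ± 0.670 to 20.4 ± 0.917 CPM and Ccnd2, a G1 cyclin, from 336 ± 19.7 to 144 ± 1.05. With PAM3CSK4, 12 rose and 2 fell, with a median log2 change of 0.27. Ccnd2 rose 1.68-fold (adjusted p = 8.50e-06) and Myc 1.77-fold (adjusted p = 2.85e-05), while Lag3, an inhibitory receptor, fell from 53.2 ± 1.65 to 35.7 ± 2.53 CPM and Bcl2l11, which encodes the death factor BIM, from 117 ± 8.31 to 87.7 ± 2.87.

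Genes on the interferon side of the family were lower in Th17 cultures. Of 45 tested targets of ISGF3, the IRF9 complex, 44 fell and 1 rose, with a median log2 change of -1.94. Samd9l, an antiviral gene, fell from 485 ± 11.2 to 14.1 ± 2.81 CPM, and Rtp4, an interferon-induced regulator, had 47.2 ± 4.48 CPM in naive cells and 3 counts in both Th17 libraries together. The gene that rose was Ly6a, which encodes the surface protein Sca-1, from 44.0 ± 6.53 to 82.1 ± 21.8 CPM. Of 34 tested IRF1 targets, 26 fell and 6 rose, with a median of -1.27. Nlrc5, the activator of MHC class I genes, fell from 406 ± 29.7 to 29.8 ± 1.96 CPM and Gbp7 from 208 ± 40.0 to 4.20 ± 0.211, whereas Gbp2, another guanylate-binding protein, rose 15.5-fold to 1958 ± 155 CPM and Il12rb1 from 4.01 ± 1.66 to 93.2 ± 5.73.

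With PAM3CSK4, 2 of the 45 ISGF3 targets rose and 4 fell, and 5 of the 34 IRF1 targets rose and none fell, where 5.21% of all genes were called higher and 4.78% lower. Ly6a rose 1.62-fold (adjusted p = 0.000872) and Ly6e 1.25-fold (adjusted p = 0.0215), while Samd9l fell to 7.71 ± 1.19 CPM (adjusted p = 0.00131) and Trim30a, a TRIM-family gene, from 55.6 ± 0.605 to 44.1 ± 0.0379 (adjusted p = 0.0225). The median log2 changes were 0.06 (0.00 with genes at 0 counts placed at the floor) and -0.03. Among IRF1 targets Il12rb1, which the IRF4-dependent list also holds, and Socs1, an inhibitor of cytokine signalling, had the smallest p, Socs1 rising from 40.8 ± 0.335 to 65.5 ± 13.5 CPM (adjusted p = 0.000617).

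Upstream of the family, 6 of 20 tested genes that carry nucleic acid signals to IRF3 and IRF7 rose in Th17 and 13 fell, where 37.8% of all genes were called higher and 34.4% lower. The RNA sensors Ddx58 (271 ± 25.6 to 50.9 ± 0.862 CPM) and Ifih1 (77.4 ± 8.03 to 5.73 ± 0.854) fell, and Ticam1, the adaptor TRIF, rose from 15.2 ± 0.524 to 31.7 ± 1.10, with Tmem173, which encodes STING, rising from 105 ± 12.8 to 161 ± 3.03. Of 19 tested genes of the MyD88 chain, 5 rose and 9 fell, among them Tlr1, the partner of TLR2 (66.6 ± 4.46 to 19.9 ± 1.20 CPM); at 26.3% and 47.4% these shares lay near those of all genes. With PAM3CSK4, 2 and 0 genes of the sensing list rose and fell, against 0 and 1 of the MyD88 chain, where Peli1, a ubiquitin ligase of that chain, went from 263 ± 2.85 to 193 ± 0.352 CPM (adjusted p = 0.00248); 5.21% of all genes were called higher and 4.78% lower there, so neither count is a result about its list.

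Interferon receptors and their JAK and STAT factors fell in 11 of 16 tested genes in Th17 and rose in 2, where 34.4% of all genes were called lower and 37.8% higher. Jak1 fell from 1315 ± 65.0 to 552 ± 0.952 CPM and Ifngr2 from 233 ± 7.93 to 103 ± 0.275, while Jak2 rose 2.19-fold and Socs3 2.36-fold. With PAM3CSK4, Socs1 and Il10rb rose and Usp18, a brake on the type I receptor, fell from 7.62 ± 1.94 to 4.26 ± 1.29 CPM (adjusted p = 0.0353). Of 16 tested IRF cofactors and regulators, 2 rose and 11 fell in Th17, the same counts as in the receptor list. With PAM3CSK4 3 rose and 1 fell, where 5.21% of all genes were called higher and 4.78% lower, Def6, an inhibitor of IRF4 function, rising 1.34-fold (adjusted p = 0.00157) and Irf2bp2, a corepressor, 1.33-fold (adjusted p = 0.00457). Of 19 interferon genes in the table, only Ifng had a count, 1 and 6 in the naive libraries, and none of the 19 had a count in the 6 culture libraries. A count of 0 allows up to 3 counts of each per library among reads aligned to 1 place. Reads aligned to more than 1 place were 73.4 to 77.1% of the count total and were not assigned to genes, so the bound does not cover them. With biglycan none of these lists had a gene called.

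**Figure D5:**
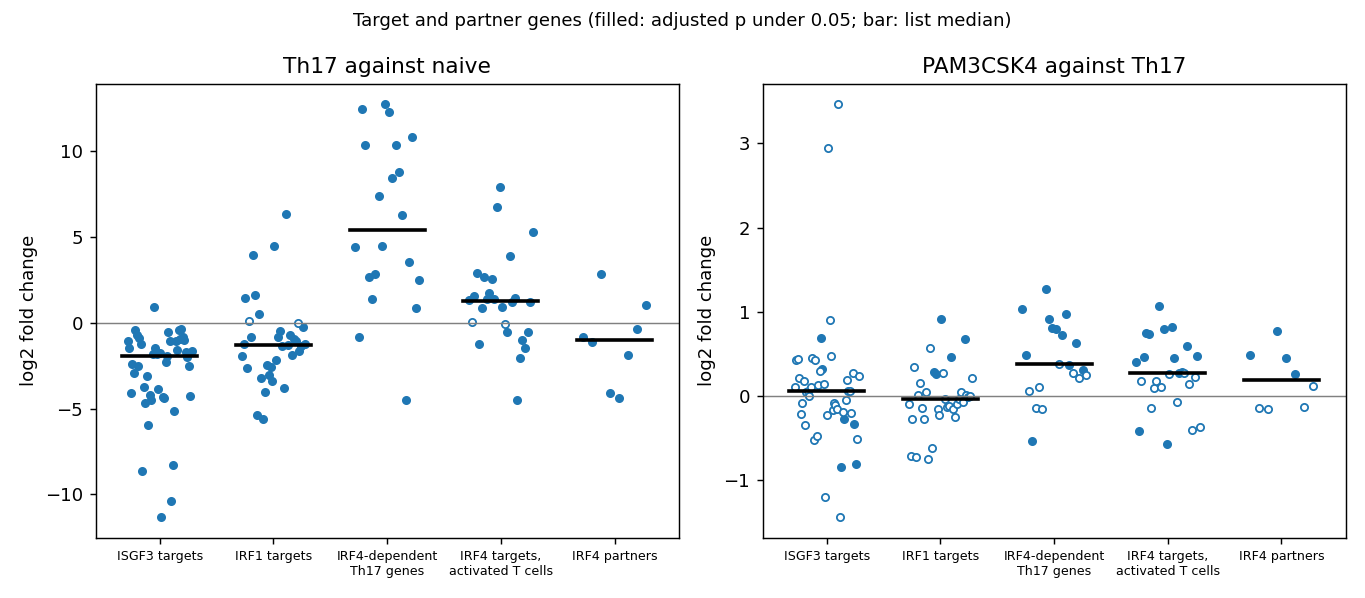
Log2 fold changes of the tested genes in 5 lists of IRF targets and partners, in Th17 against naive cells (left) and PAM3CSK4 against Th17 (right); each point is a gene, filled where the adjusted p is under 0.05, and the bar is the list median. ISGF3 targets lie below 0 on the left for all genes but Ly6a; fitted values of genes with 0 counts in a group are not bounds.

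Over the 8 libraries, the genes most like each member in centred log2(CPM + 1), among 9567 genes with a mean of at least 5 CPM, were found by root mean square distance. For Irf4 these were Dcbld2 and Tex15 (0.0997 and 0.101), for Irf8 Scarb1 and Zfp516 (0.143 and 0.1497), and for Irf5 Cdk6 and Plcg2 (0.0935 and 0.0951). Irf2 lay closest to its neighbours, Sepp1 and Dnajc9 (0.0323 and 0.0426), followed by Irf9 to Ehd3 and Setdb2 (0.0361 and 0.0378). For Irf1, Hlcs lay at 0.0702. Irf3 was nearest to Adsl and Sirt7 (0.0483 and 0.0560), and Irf7 was nearest to Lypd6b and Itgb3 at the largest distances, 0.163 and 0.171.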

How the data were processed

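Raw counts per gene symbol were deposited as whole numbers. Per the submitters' processing notes the authors used Bowtie2, HTSeq and build mm9; tool versions, the annotation and strandedness were not given in the sources used here. A deposited RPKM table and the percent of reads assigned to ribosomal and mitochondrial RNA are the authors' values, per the file headers. RPKM served for levels between members and was not tested. The 5 summary lines of the count table, 86.3 to 88.3% of its total, were left out. The largest held reads aligned to more than 1 place, 73.4 to 77.1% of the total. The biglycan columns carry other numbers than the sample titles and were linked through library numbers.

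Counts were tested with edgeR 4.0.16 in R 4.3.3: filterByExpr by group, TMM scaling and 1 quasi-likelihood model of 8 libraries with 4 residual degrees of freedom. Each SE was the absolute log2 change divided by the square root of the F statistic. The 95% intervals used t quantiles with the 4 residual degrees of freedom plus 15.9 borrowed across genes. Calls were made at 0.05 after Benjamini-Hochberg adjustment across the 11629 genes tested. DESeq2 1.42.0, other scalings and filters, libraries left out and a replicate block were alternatives. The procedure was tested on simulated data. No pair of replicates agreed within sampling noise (chi-square per degree of freedom 2.62 to 5.86). Members and lists were chosen with earlier results of these data known. Named were all members, per list and comparison up to 2 genes that rose and 2 that fell with the smallest p, and per member the 2 genes nearest in pattern. Some genes that the rule allows are left out. Genes beyond it were named where a count was 5 or fewer, or as examples of marker and receptor levels, after their values were seen. Sequences are from RefSeq, and coordinates from it are not those of the files' build.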

Additional observations from a re-analysis of the deposited data

How the results depend on the processing

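Over 12 alternatives in Th17 against naive cells, the 7 members called kept their direction and their call. Over all member fold changes and alternatives, 329 values kept direction and side of the threshold, 18 kept direction but lost the call, and 13 changed sign, each of the latter in a difference that did not pass the test. With 1 library left out, Irf2 ranged from -0.0539 to 0.129 (log2) in Th17 against naive cells; Irf3 from -0.0532 to 0.116 for PAM3CSK4 against Th17 and from -0.108 to 0.0635 against biglycan; and for biglycan against Th17, Irf3 from -0.0156 to 0.125, Irf4 from -0.116 to 0.238, Irf5 from -0.134 to 0.170 and Irf7 from -0.156 to 0.00876. Without a filter on low counts, Irf5 was at -0.000163 for biglycan against Th17. Members called for PAM3CSK4 numbered 2 to 4 with 1 library left out, against Th17 and against biglycan, in place of 5. Calls over all genes fell from 1162 to between 361 and 938 for PAM3CSK4 against Th17 and from 1342 to between 360 and 777 for PAM3CSK4 against biglycan, where DESeq2 gave 894 and a fit of those 2 groups alone 2231. For biglycan against Th17, 29 genes were called without the filter and 1 to 6 with 1 library left out, in place of 0. The cause was not tested; a group with 1 library left borrows its spread from the others. Replicate numbers are shared by naive and Th17 libraries only. The correlation of same-numbered deviations from the group means was 0.0550 over 11629 genes. With 2 libraries in a group their deviations mirror each other, so this value cannot show whether same-numbered libraries are paired. With the replicate block 7 members and 8051 genes were called, against 7 and 8390. Depth limits Irf7, which had 41 to 71 counts per culture library, and Irf5, which had 14 in each naive library.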
